A study of Arabidopsis thaliana with 6 samples.

Results

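The type-B response regulators are the transcription factors at the end of the cytokinin signalling chain. They were taken here as 7 Arabidopsis thaliana genes chosen by gene identifier: ARR1 (AT3G16857), ARR2 (AT4G16110), ARR10 (AT4G31920), ARR11 (AT1G67710), ARR12 (AT2G25180), ARR14 (AT2G01760) and ARR18 (AT5G58080). Of these 7, 4 were named among the 2896 loci of the authors' deposited table. All 2896 were lower in pkl than in the wild type (WT). Those 4 were ARR1, ARR2, ARR11 and ARR12. The locus named ARR1 also covers the whole of another gene, COBL8. The members were chosen with this comparison known, so their values are a description and carry no test of their own.

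RNA had been sequenced from whole 14-day-old seedlings grown in long days, with 3 libraries per genotype. The mutated gene is PICKLE (PKL), for a CHD3-type remodeler of chromatin, which is also catalogued as CYTOKININ-HYPERSENSITIVE 2. The labels do not give the pkl allele or the accession background, and they do not say whether replicates were grown separately. Each genotype had 1 FPKM value per locus (fragments scaled to transcript length and to all mapped fragments), made by the authors from its libraries. No spread between replicates can therefore be given, and library depth is unknown.

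Cytokinin binds histidine kinase receptors in membranes, and the signal passes as a phosphate through phosphotransfer proteins into the nucleus. There it reaches a receiver domain in the type-B regulators, which then activate genes through a DNA-binding domain of the GARP family. Among the genes they activate are the type-A response regulators, which lack that DNA-binding domain and dampen the signal. ARR1, ARR10 and ARR12 carry much of the cytokinin response of seedlings, in root meristem size, vascular tissue and shoot growth.

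The PKL locus itself was lower in the mutant, with 19.2 FPKM against 6.79 FPKM (log2 fold change -1.50, q = 0.000338 in the authors' deposited table). This locus also holds the whole of AT2G25169, a protein-coding gene on the other strand, so its values are not those of PKL alone. Of 4 genes typical of leaf and root, 3 were listed, beside 14.8% of all tests of the comparison. Their median fold was 1.61, beside 1.52 over all listed loci. LHCB1.1 of the leaf antenna fell from 5524 to 3575 FPKM. The root endodermis gene CASP1 fell from 48.5 to 25 FPKM and the root hair gene COBL9 from 3.89 to 2.42 FPKM, while RBCS1A was not listed. The CASP1 locus also overlaps a second protein-coding gene, AT2G36090. None of the 3 was at 0, and their part in the values of the regulators was not tested. In RNA from whole seedlings, fewer cells of a type and less RNA per cell cannot be told apart.

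The stretches before the 4 listed genes are shown because each gene is named in a locus that was lower in pkl. Each runs from 250 bases before the annotated gene start to the base before it, 5′ to 3′ on the strand of the gene, from the RefSeq copy of the genome (TAIR10.1). ARR1 lies on the plus strand at chr3:5755464-5755713, ARR2 on the plus strand at chr4:9112436-9112685, ARR11 on the minus strand at chr1:25379218-25379467 and ARR12 on the minus strand at chr2:10727273-10727522. Capitals mark AGATT, a core to which type-B regulators are known to bind, on either strand (read as AATCT on the other).
ARR1: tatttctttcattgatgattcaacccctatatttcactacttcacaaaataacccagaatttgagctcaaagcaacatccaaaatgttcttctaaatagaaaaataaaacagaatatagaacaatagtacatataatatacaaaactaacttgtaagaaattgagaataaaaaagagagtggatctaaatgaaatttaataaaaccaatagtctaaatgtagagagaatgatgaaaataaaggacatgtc
ARR2: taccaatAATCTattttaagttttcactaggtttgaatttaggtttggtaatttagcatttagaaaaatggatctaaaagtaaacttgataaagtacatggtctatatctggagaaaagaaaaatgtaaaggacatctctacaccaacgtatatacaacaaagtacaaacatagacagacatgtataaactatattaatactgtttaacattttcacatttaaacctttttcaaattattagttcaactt
ARR11: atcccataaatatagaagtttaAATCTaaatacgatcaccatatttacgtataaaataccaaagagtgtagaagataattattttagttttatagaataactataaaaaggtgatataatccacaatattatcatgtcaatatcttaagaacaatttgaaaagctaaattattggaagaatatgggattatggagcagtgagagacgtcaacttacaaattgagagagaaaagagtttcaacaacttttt
ARR12: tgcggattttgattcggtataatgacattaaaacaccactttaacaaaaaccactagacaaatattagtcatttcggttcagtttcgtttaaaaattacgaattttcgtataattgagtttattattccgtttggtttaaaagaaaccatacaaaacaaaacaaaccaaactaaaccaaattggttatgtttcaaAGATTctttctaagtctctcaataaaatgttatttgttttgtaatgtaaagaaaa

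The core was present once before ARR2, ARR11 and ARR12 and was not in the window of ARR1. Its first base lay 243 bases before the start of ARR2, 228 before ARR11 and 55 before ARR12. Of the 3 members without a row, ARR10 had no match, ARR14 had 1 and ARR18 had 2. In all, 5 of 7 members (71.4%) held the core, beside 63.7% of 27443 nuclear protein-coding genes and 62.8% of the 2959 of these that the table named. The share among the members was thus close to that of any gene. The longer form AAGATNTT, searched on both strands, was in the windows of ARR11 and ARR14 (28.6% of the members) and in 12% of all windows. In ARR11 it lay outside the marked core. A match describes these letters and does not show binding.

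ARR2, ARR11 and ARR12 had less transcript in pkl, by less than 2-fold each. The locus named ARR1 was lower too, but it also holds the whole COBL8 gene, so its values are not those of ARR1 alone. That locus had the highest level, followed by ARR12, ARR2 and ARR11, in both genotypes. It stood 12.6 times above ARR11 in WT and 20.4 times above it in pkl, and the place of ARR1 itself in this order is not known. With no value per library, whether neighbours in this order differ beyond their spread could not be assessed. The largest fold was in ARR11, at the lowest level, and the smallest in the ARR1 locus, at the highest, while ARR12 (1.54-fold) fell more than the lower ARR2 (1.33-fold). Only loci past the authors' threshold are listed, and the part of this filter in the order of folds by level was not tested.

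ARR1 promotes cell differentiation in the root tip and greening in the shoot. The locus that bears its name went from 32.4 to 27.3 FPKM. That was 84.4% of the WT level (log2 fold change -0.24, p = 0.0126, q = 0.0423 in the authors' deposited table). This was a small fall for the table, where 2859 loci (98.7%) had a larger one. Its p-value was also near the edge of the list: counted with its ties, it ranked 5821 among the 5992 tests, in either direction, that the authors' threshold let through.

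ARR12 acts beside ARR1 and ARR10, and with ARR1 it holds down the sodium transporter gene HKT1 in roots. It fell from 15.2 to 9.88 FPKM, to 64.8% of WT (log2 fold change -0.63, q = 0.000338 in the authors' deposited table). Its p-value was 5e-05, the smallest that the table lists. The fall was close to the middle of the table, since 48.2% of the listed loci fell further and the median listed locus fell 1.52-fold against 1.54-fold for ARR12.

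ARR2, which acts below the receptor AHK3 in the control of leaf senescence, fell from 8.03 to 6.05 FPKM, to 75.3% of WT (log2 fold change -0.41, q = 0.00245 in the authors' deposited table). Of the listed loci, 73.3% fell further. ARR11, whose separate role is less well defined, was the weakest of the 4 in level, going from 2.58 to 1.34 FPKM. It was at 51.9% of WT (log2 fold change -0.95, q = 0.000637 in the authors' deposited table), and 27.7% of the listed loci fell further.

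Summed over the 4, the FPKM went from 58.2 in WT to 44.6 in pkl, which left 76.6% of the WT sum. ARR12 made up 39.4% of the difference and the ARR1 locus 37.0%, while ARR2 made up 14.6% and ARR11 9.10%. The ARR1 locus was 55.6% of the sum in WT and 61.3% in pkl. The sum counts the whole ARR1 locus, which covers a second gene.

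**Figure D1:**
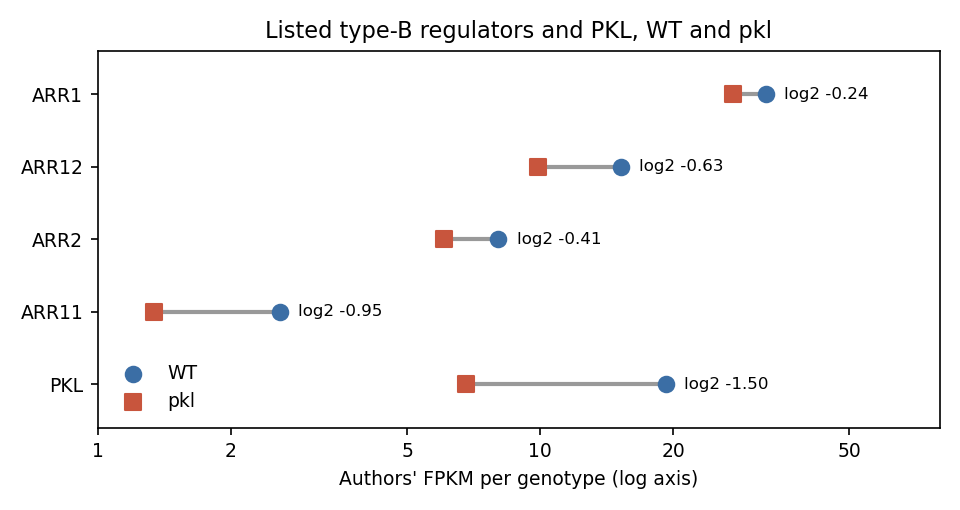
Authors' FPKM per genotype (log axis) of the 4 listed type-B regulators, ordered by WT level, and of PKL, with WT as circles, pkl as squares and the log2 fold change (pkl over WT) beside them. The values are single group values without error bars, and the PKL locus also covers AT2G25169. Each square lies left of its circle. The gap is narrowest for the ARR1 locus, which also covers COBL8 (32.4 to 27.3 FPKM). Among the regulators it is widest for ARR11 (2.58 to 1.34 FPKM).

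**Figure D2:**
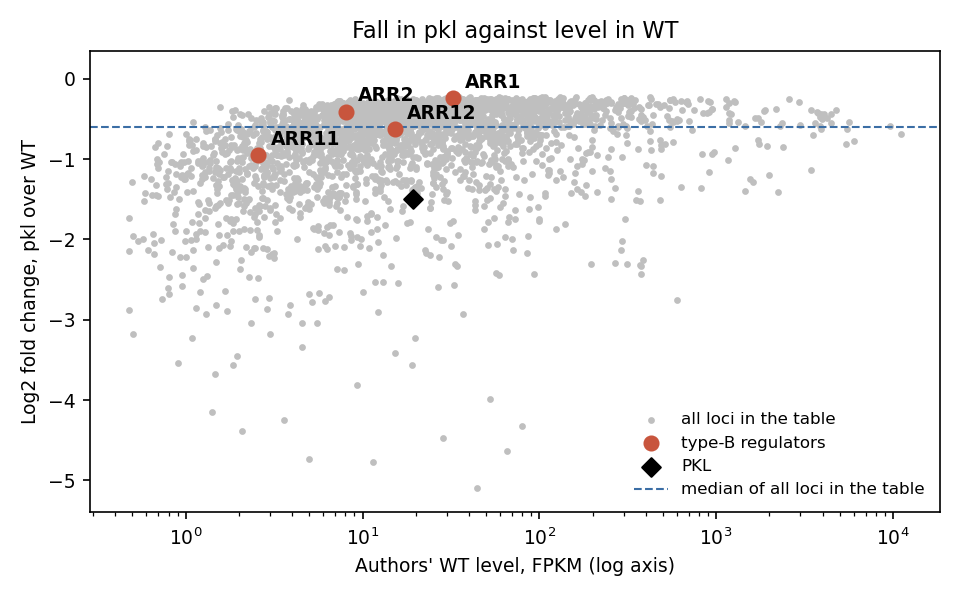
Log2 fold change (pkl over WT) against the authors' WT level in FPKM (log axis) for the 2896 listed loci (grey), the 4 type-B regulators (red) and PKL (black diamond), with the median of all listed loci as a dashed line. The ARR1 locus, which also covers COBL8, and ARR2 lie above the median line of -0.60. ARR12 lies almost on it and ARR11 below it. The PKL locus also covers AT2G25169.

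The 4 of 7 members are to be read beside the background of the comparison. The lower loci were 2896 of 19554 tests, or 14.8%, a number of tests recovered from the authors' p-values and q-values. The 14.8% counts tested loci. Each count of genes set beside it takes in all genes of the set, tested or not. The shares are therefore not counted alike. By annotated genes, the table named 2959 of the 27443 nuclear protein-coding genes, and genes of other kinds are not in this count. Because the members were chosen with this comparison known, nothing further is read from the difference between these shares. Stricter rules left 3 members at a q under 0.01 (11.0% of all tests), 3 with at least 5 FPKM in WT (11.6%), 2 with a fold of at least 1.5 (7.74%) and 0 with a fold of at least 2 (3.83%). ARR10 and ARR18 had no row and lay in no listed locus by position, and their levels were not analysed here. Having no row does not show an unchanged level.

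The position of the members along the chromosomes bears on 3 of the 7 members. The table assigns 1 value to each assembled locus, and a locus can run across neighbouring genes even where it names 1. Of the 2755 loci that named 1 gene, 416 (15.1%) covered at least 50% of 2 or more annotated protein-coding genes. The ARR2, ARR11 and ARR12 loci covered no second protein-coding gene. Between 97.1% and 100% of the ARR11 and ARR2 genes lay inside their loci, and 89.5% of the ARR12 gene.

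The locus named ARR1 ran from position 5755769 to 5762277 of chromosome 3 (TAIR10). ARR1 took up 56.5% of it. COBL8 (AT3G16860), a gene of the COBRA-like family that lies tail to tail with ARR1 and overlaps it by 69 bases, took up 44.4% and was wholly inside. COBL8 had no row of its own. The 32.4 and 27.3 FPKM are therefore values of a locus of 2 genes, and the parts of ARR1 and COBL8 in its small fall cannot be told apart here.

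ARR14 had no row by name but lay wholly inside a listed locus. That locus, named for AT2G01755, ran from position 327967 to 336461 of chromosome 2. It covered 4 protein-coding genes: MAP70-3, of a family of microtubule-associated proteins, AT2G01755, ARR14 and the vacuolar iron transporter gene VIT1. ARR14 was 21.9% of its length. The locus went from 29.1 to 18.0 FPKM (log2 fold change -0.69, q = 0.0321 in the authors' deposited table), and no share of this can be given to ARR14.

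ARR12 is the direct neighbour of PKL, and the pair lies tail to tail. PKL is on the plus strand and ends at position 10724106 of chromosome 2, and ARR12 is on the minus strand and ends at 10724301, so 194 bases separate them in the RefSeq annotation. The deposited loci were kept apart by 314 bases, and the ARR12 locus, from 10724301 to 10726961, held no part of PKL. The stretch between the annotated ends is shown because it separates the transcript of the mutated gene from that of ARR12. It is given on the plus strand of TAIR10.1, at chr2:10724107-10724300, and the polyadenylation signal AATAAA occurs in it on neither strand, so it carries no capitals. The stretch lies beyond both annotated ends, so the missing signal does not tell where either transcript stops.
PKL to ARR12: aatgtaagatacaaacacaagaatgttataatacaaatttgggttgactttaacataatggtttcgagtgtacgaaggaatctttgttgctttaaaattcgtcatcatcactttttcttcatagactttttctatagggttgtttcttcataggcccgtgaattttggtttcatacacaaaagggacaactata

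The PKL locus, which also covers AT2G25169, fell 2.84-fold and ARR12 fell 1.54-fold. The sources used here do not give the strandedness of the libraries. Where strand is not kept, reads of a PKL transcript that runs on past its end cannot be told apart from reads of ARR12, and their part in the ARR12 value was not tested. Tail-to-tail neighbours as near as these are common: of 6599 such pairs of protein-coding genes, 58.0% were nearer to each other or overlapped, and the median gap was 83 bases. Of the 1318 such pairs with at least 1 gene named in the table, 81 (6.15%) had both genes named, PKL and ARR12 among them. That count misses genes hidden in a locus of another name, as COBL8 is. It has no expected share beside it, so nothing is read from it.

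Among the 6 protein-coding genes on each side of PKL, 3 of 12 were named in the table, beside 14.8% of all tests, and nothing is read from this small count. Besides ARR12 these were CYP82F1 (AT2G25160), a cytochrome P450 gene that fell 3.68-fold, from 5.62 to 1.53 FPKM, and AT2G25200, which fell 2.39-fold, from 12.8 to 5.37 FPKM. CYP82F1 lies 2525 bases before the start of PKL, and AT2G25200 lies 12154 bases beyond its end. The gene between CYP82F1 and PKL, AT2G25169, lay inside the PKL locus. The fall of ARR12 was thus the smallest of the 4 listed loci in this window.

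**Figure D3:**
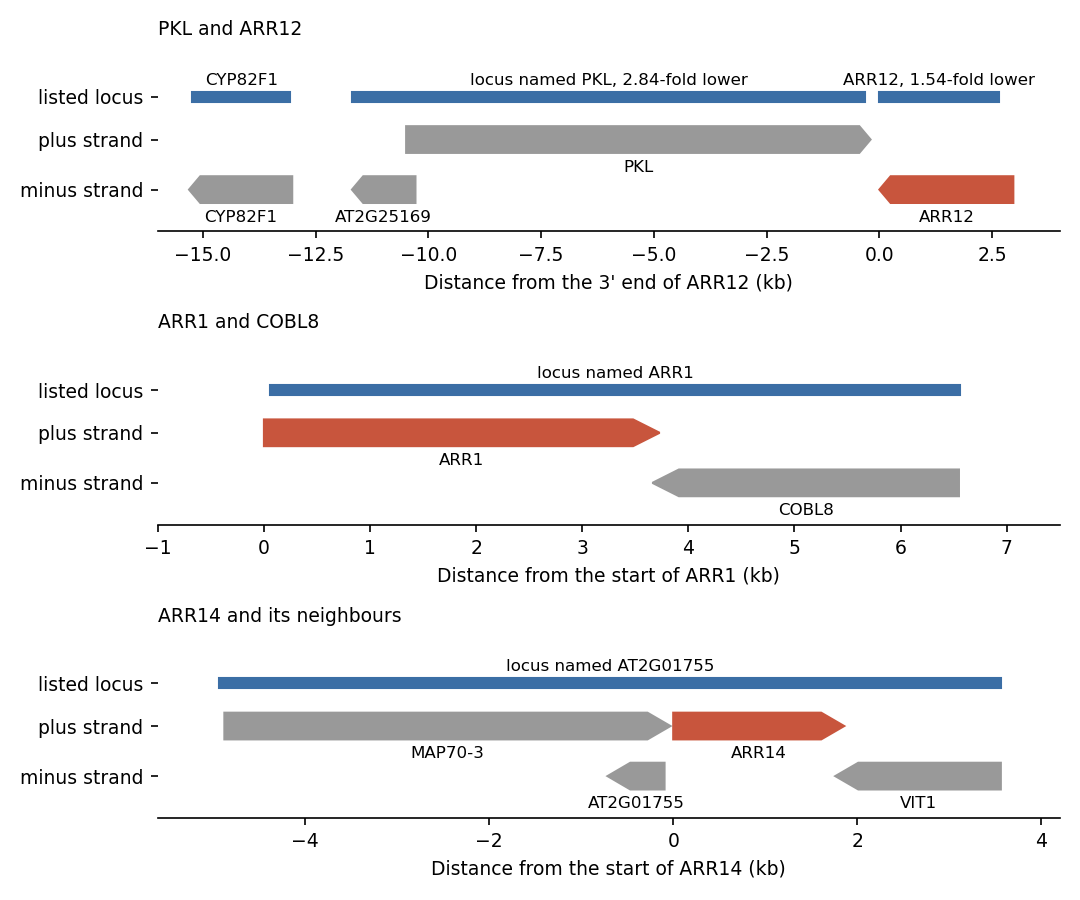
Maps of the PKL and ARR12 region, the ARR1 locus and the locus that holds ARR14, with the distance in kb on each horizontal axis, annotated genes as arrows by strand (type-B regulators in red) and loci of the deposited table as blue bars. The ARR12 bar stands apart from the PKL bar by 314 bases, the ARR1 bar also covers COBL8, and the bar named AT2G01755 covers ARR14 and 3 other genes.

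The 7 members have 14 direct neighbours among protein-coding genes, and 3 of the 14 were named in the table, beside 14.8% of all tests. These were PKL beside ARR12, AT2G01755, whose locus holds ARR14 itself, and BAT1 (AT4G31910) beside ARR10. BAT1, an acyltransferase gene linked to brassinosteroids, lies tail to tail with ARR10 at a distance of 46 bases. It fell from 19.3 to 13.0 FPKM (log2 fold change -0.57, q = 0.000338 in the authors' deposited table). ARR2 lies 44 bases from COBL7, a relative of the COBL8 that adjoins ARR1, and COBL7 had no row.

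Likeness of sequence decides how surely reads are assigned among relatives. The closest pair by coding sequence was ARR1 and ARR2, at 81.0% identity over the aligned bases, and their longest identical run was 38 bases. ARR10 and ARR12 followed at 77.7%, with a longest run of 29 bases. The other 19 pairs had between 60.7% and 66.7% identity. No pair was near-identical. The read length is not given in the sources used here.

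The rest of the cytokinin pathway was read from 12 lists of 77 genes in all, without the 7 members. Of these 77, 25 (32.5%) were listed as lower, beside 14.8% of all tests, with a median fold of 1.54 beside 1.52 over all listed loci. These lists were also drawn up with earlier results of these data known. The median fold of the 4 type-B regulators was 1.43. The falls over 2-fold, 8 in number, were in type-A regulators, in genes of cytokinin breakdown and in 1 gene for an F-box protein.

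Upstream of the type-B regulators, 1 of 3 receptor genes and 2 of 6 phosphotransfer genes were lower, beside 14.8% of all tests. The receptor gene AHK4, needed for the root vasculature, fell from 8.24 to 5.89 FPKM (1.40-fold). AHP1 fell from 53.5 to 36.3 FPKM (1.48-fold) and AHP2 from 51.5 to 40.3 FPKM (1.28-fold). Both carry the phosphate from the receptors to the type-B regulators. AHP5 had no row of its own and lay in a locus named for AT1G03400 and AT1G03410 that fell 1.93-fold. The related kinase genes CKI1, AHK5 and AHK1 were not listed.

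Downstream, 7 of 10 type-A regulators were lower (70.0%, beside 14.8% of all tests). Their median fold was 2.32, with folds from 1.54 in ARR8 to 5.52 in ARR15. ARR15 was weakly expressed, going from 2.28 to 0.413 FPKM (q = 0.0126 in the authors' deposited table). ARR6 fell from 43.2 to 14.0 FPKM (3.09-fold), and ARR5, a common marker of the cytokinin response, fell from 17.6 to 7.07 FPKM (2.49-fold). ARR7 (2.32-fold), ARR9 (1.93-fold) and ARR4 (1.63-fold) lay between. The type-A falls and the type-B falls come from the same libraries, and the difference between the groups was not tested. In the windows before the type-A genes, 7 of 10 held AGATT (70.0%, against 63.7% of all windows) and 5 held AAGATNTT (50%, against 12% of all windows).

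Cytokinin response factors, AP2-type transcription factors that act beside the type-B regulators, were lower in 3 of 6 cases, beside 14.8% of all tests. CRF4 fell 1.44-fold, from 7.36 to 5.11 FPKM, CRF5 fell 1.37-fold and CRF2 fell 1.26-fold. Of 4 KMD genes, whose F-box proteins mark type-B regulators for breakdown, 2 were lower, beside the same 14.8%. KMD1 fell from 131 to 59.2 FPKM (2.22-fold) and KMD4 from 126 to 68.5 FPKM (1.85-fold). KMD3 lay inside a locus named for AT2G44140 that fell 1.23-fold, and KMD2 was not listed.

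Of 20 cytokinin synthesis genes, 3 were lower (15%, beside 14.8% of all tests, which leave out untested genes). They were LOG1, whose product releases active cytokinin and which fell 1.77-fold from 8.91 FPKM, IPT3, of the first step, which fell 1.51-fold from 10.1 FPKM, and CYP735A2, of trans-zeatin synthesis, which fell 1.37-fold from 6.10 FPKM. Of 10 genes of breakdown and conjugation, 5 were lower (beside 14.8% of all tests), or 3 with at least 5 FPKM in WT (beside 11.6%). The difference between these lists was not tested. The cytokinin oxidase genes CKX4 (1.49 to 0.498 FPKM, 3-fold), CKX3 (0.787 to 0.304 FPKM, 2.59-fold) and CKX7 (8.09 to 3.23 FPKM, 2.51-fold) fell most, and CKX4 and CKX3 were weakly expressed. CKX6 fell 1.49-fold and the glucosyltransferase gene UGT76C2 fell 1.35-fold.

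Of 4 transport genes, 2 were lower, beside 14.8% of all tests. PUP14, which takes cytokinin into cells, fell from 100.3 to 70.0 FPKM (1.43-fold). ABCG14, which loads it for transport from root to shoot, fell from 16.2 to 11.6 FPKM (1.39-fold). The median listed locus fell 1.52-fold. None of 4 further genes known as type-B targets (IAA3, HKT1, WUS and LBD3) was named in the table. HKT1, which ARR1 and ARR12 hold down, could not have been named if it rose, since no locus higher in pkl is listed. The 5 other type-B genes (ARR13, ARR19, ARR20, ARR21 and ARR23) and the type-C genes ARR22 and ARR24 were not listed either. Their levels were not analysed here. Of the 25 listed genes, KMD4, CKX6 and PUP14 lay in loci that overlap a second protein-coding gene. The q-values of the 25 listed pathway genes in the authors' deposited table ran from 0.000338 to 0.0148.

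**Figure D4:**
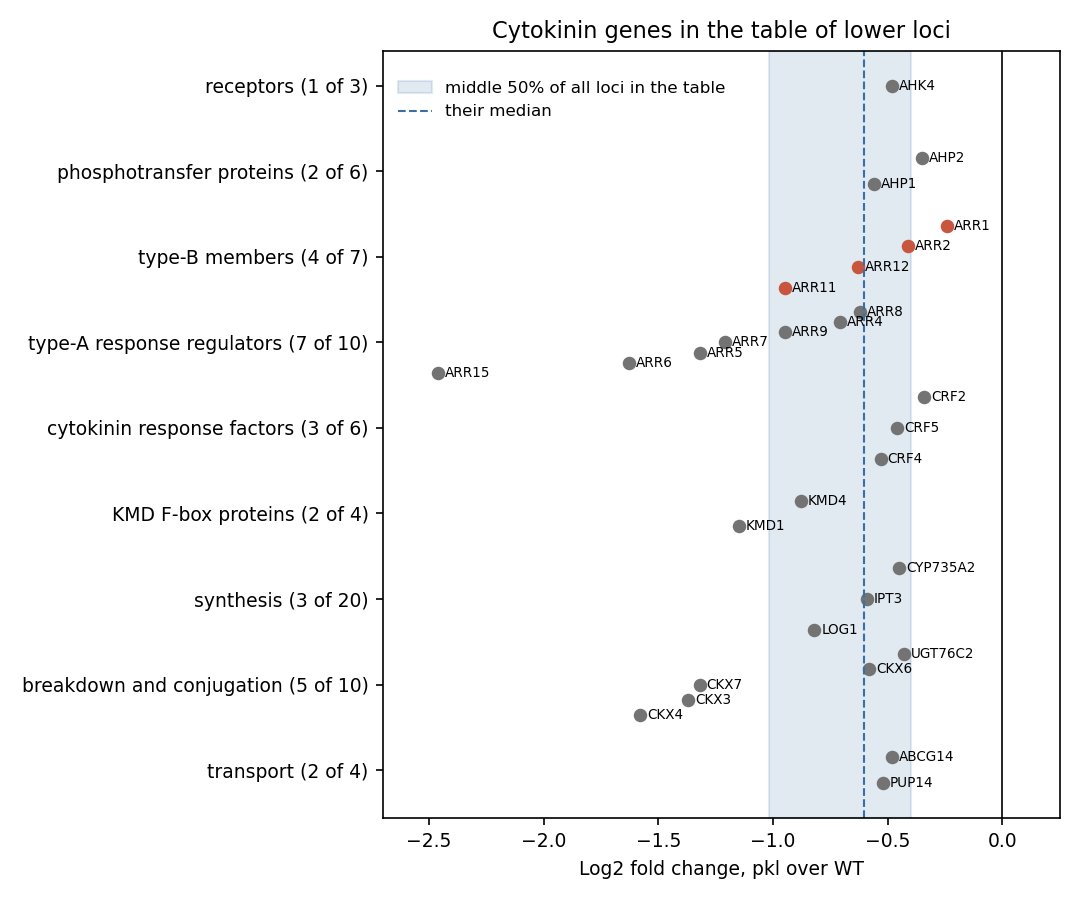
Log2 fold change (pkl over WT) of each cytokinin gene named in the table, by role from receptors to transport, with listed genes out of all genes of the list in parentheses. The type-B regulators are red, the shaded band holds the middle 50% of all listed loci and the dashed line is their median (-0.60). The ARR1 locus, which also covers COBL8, lies right of the band. ARR15 and CKX4, both weakly expressed, and ARR6 lie farthest left.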

How the data were processed

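RNA of 14-day-old seedlings was compared between WT and pkl, with 3 libraries each. TopHat, Cufflinks 2.1.1 and Cuffdiff 2.1.1 are named with the TAIR10 build, per the submitters' processing notes. The authors deposited FPKM per genotype, with the libraries combined. Their deposited log2 fold change is pkl over WT, and it matched the ratio of the FPKM values to within 1.23e-05. The deposited p-value and q-value are the authors' own, and their deposited test statistic, a score, was not used. The table held 2896 loci, and 0 were higher in pkl. Loci higher in pkl or not past the authors' threshold were not analysed here.

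The members and gene lists were chosen with earlier results of these data known. No test was made, since a group had 1 value per locus. Members were matched by gene identifier, split at commas. The text names the members, PKL, listed neighbours of the members, and per pathway list up to 6 listed genes with the largest fold. CYP82F1, AT2G25169 and AT2G25200 near PKL, 1 gene more than that rule gives among the type-A genes, and the genes inside merged loci were chosen after their values were seen. COBL7 and PKR2, which had no row, were also named outside that rule. All 95 listed names matched a symbol or synonym in RefSeq (TAIR10.1); ARR8 is RR3 there.

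The number of tests was the number from 2896 to 38999 that made the ranks (p over q, times the number of tests) whole. At 19554 the ranks came within 0.017 of whole numbers, against 0.311 for the next best, 19555. On simulated tables the true number was returned in 10 of 10. Multiples of it exceed the 38319 annotated genes. Of 2740 loci of 1 nuclear gene, all overlapped that gene in TAIR10.1, and 1042 shared a start or end with a transcript to the base. Locus starts are printed counted from 1. A gene lay in a locus by position when at least 50% of it was inside. Coding sequences (longest per gene) were aligned with Biopython 1.88. The alternatives were stricter q, fold and level thresholds, merged loci left out, pseudocounts, recentring and a longer motif.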

Additional observations from a re-analysis of the deposited data

How the results depend on the processing

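The table has 1 value per genotype, so leaving out each replicate was not run. No paired analysis was possible because the columns carry no replicate. Of the 7 members, 3 were listed with a q under 0.01 or with at least 5 FPKM in WT, 2 with a fold of at least 1.5 and 0 with a fold of at least 2. Loci of 1 named gene left 4. By position, which was added after seeing the data, 3 loci overlapped no second protein-coding gene and 5 members lay in a listed locus. With pseudocounts of 0.1 and 1 FPKM the log2 fold change became -0.40 and -0.36 for ARR2, -0.90 and -0.61 for ARR11, and -0.62 and -0.58 for ARR12. The ARR1 locus stayed at -0.24. Against the median of listed loci, a median of falls alone, ARR1 (0.36) and ARR2 (0.19) changed sign, and ARR12 was at -0.02 and ARR11 at -0.34.

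With a fold of at least 2, the lists had 4 type-A regulators, 3 genes of breakdown and conjugation, 1 KMD gene, and 0 receptors, phosphotransfer proteins, response factors, synthesis and transport genes. These counts stand beside 3.83% of all tests at that fold. With a q under 0.01, 1 response factor was left, and with 5 FPKM, also added later, 3 genes of breakdown. Without loci over a second gene, 1 KMD gene and 1 transport gene were left. With AAGATNTT in place of AGATT the share of windows became 28.6% for the members, 50% for type-A regulators and 12% for all genes. The depth is unknown, and weakly expressed ARR11 moved most with the pseudocount.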

Other observations

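Of 7 genes for other transcription factors with the GARP DNA-binding domain (GLK1, GLK2, LUX, BOA, APRR2, MYBC1 and KAN1), 1 was listed (14.3%), beside 14.8% of all tests. GLK2, a regulator of chloroplast development, fell from 28.7 to 11.1 FPKM (2.58-fold, q = 0.000338 in the authors' deposited table), a larger fall than that of any of the 4 listed type-B regulators.

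The regulator most like ARR12 in coding sequence also lies near a relative of PKL. ARR10, at 77.7% identity to ARR12, lies 5374 bases from PKR2, a CHD3-type relative of PKL, with 1 protein-coding gene, BAT1, between them. ARR12 and PKL are 194 bases apart. ARR12, PKL and BAT1 were named in the table, and ARR10 and PKR2 were not. ARR1 and ARR2, the pair most alike, likewise each lie tail to tail with a COBRA-like gene, COBL8 and COBL7.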
